A study of Mus musculus with 40 samples.

Results

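The early response of the aorta to angiotensin II (Ang-II) was read from 5 RNA-seq libraries of control mice (Cn-Ctl), 3 made after 2 h of Ang-II and 2 from untreated mice, out of 40 libraries in the series. They were chosen by genotype, treatment and time only, so no gene was picked in or out: the deposited table lists 17402 genes, and the 14424 protein-coding ones were tested. The study asks what calcineurin (Cn), a calcium-dependent phosphatase, does in the vessel wall under Ang-II, in 22 libraries of mice with or without Cn in smooth muscle and 18 of wild-type mice with or without the Cn inhibitor cyclosporin A (CsA). Cn-Ctl mice of both groups were males labelled as having a floxed CnB1 gene (Ppp3r1, the regulatory subunit of Cn) and as negative for the Myh11-CreERT2 transgene, although the study's methods also count mice with unfloxed CnB1 and the transgene as Cn-Ctl. All had received tamoxifen, 1 mg per day for 5 days at an age of 10 to 12 weeks, and were studied 6 weeks later. Treated mice carried an osmotic minipump that delivered Ang-II at 1 µg/kg/min, and by the study's methods only those whose systolic pressure exceeded 130 mmHg were used. By those methods control mice in general had the same operation with no pump put in. Whether and when the untreated mice of these libraries were operated on is not given. Ang-II, the pump, the raised pressure, this selection and any difference in the operation or its timing therefore cannot be told apart. The hour at which each group was killed is not given in the sources used here. Each library pools 3 aortas, which had been flushed and cleared of perivascular tissue and adventitia. A further untreated Cn-Ctl library had been set aside by the authors for its distance from the other 2 and was not analysed here.

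Ang-II acts on vascular smooth muscle mainly through the AT1 receptor, a Gq-coupled receptor that raises cytosolic calcium and activates protein kinase C and the MAP kinases. Calcium-bound calmodulin activates Cn, which dephosphorylates NFAT factors and so lets them enter the nucleus. Within minutes to hours such stimuli switch on immediate early genes, whose products (AP-1, Egr, Nr4a and Krüppel-like factors) control later genes of matrix, cytoskeleton and growth, together with inhibitors that end the signal.

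The deposited value of a gene, called signal here, is its read number plus 0.5 over the authors' scaled library size, on a scale where 1 read stands for 0.146 to 0.199 in these 5 libraries. The untreated libraries (replicates 2 and 3) held 6.57 and 5.27 M reads and the treated libraries (replicates 1 to 3) 5.91, 7.45 and 7.21 M. Differences were tested with limma on log2(signal + 0.5), with the spread estimated over all 22 libraries of the genotype experiment, and a gene is said to have risen or fallen where its Benjamini-Hochberg adjusted p was under 0.05. By this rule 899 genes were called, 6.23% of those tested, with 681 higher (4.72%) and 218 lower (1.51%). Counts of list members below are to be read beside these shares. All log2 fold changes below are on that scale, which understates the change of genes with low signal, and stand with their standard error. The median standard error over genes was 0.36, and it rests on the spread pooled over all 22 libraries. Between replicates of these groups alone, the log2 signal had a median SD of 0.21 in the untreated and 0.31 in the treated group. An exact permutation test of 3 against 2 libraries cannot give a p below 0.1, so none is given for single genes. Unless said otherwise, values are listed as untreated replicates 2 and 3 and then treated replicates 1, 2 and 3.

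Markers showed arterial smooth muscle in every library. Acta2, smooth muscle actin, had a signal of 14592 and 14995 untreated and 18300.4, 17283 and 15159 treated, and Myh11, smooth muscle myosin, 5747 and 5725 and 5652, 6009.99 and 4133. None of the 8 smooth muscle markers passed the test, and their summed signal was 33079.6 and 32202 untreated against 39955, 37518 and 30030.5 treated, ranges that overlap. Endothelial markers summed to 669.7 and 544 and 507, 774 and 882, with 0 of 16 called. Macrophage markers summed to 148 and 105 untreated and 168, 266 and 433 treated and were above both untreated libraries in each treated one, although only C1qa, a complement subunit, passed (log2 fold change 1.49 ± 0.35, limma adjusted p = 0.0096, 0.23 without untreated replicate 2). Adventitial fibroblast markers summed to 2859 and 1717 and 3226, 3707 and 4257, again higher in each treated library, and Pi16 and Serpinf1 of 10 passed, neither of them without untreated replicate 3 or after quantile normalization. Blood cell markers ran from 35.2 and 194 to 162, 399 and 409, with 0 of 10 called. Liver markers were uneven within both groups (322 and 794 and 813, 499 and 168), and 1 of 8, Mup2, a gene with near-identical copies, fell. Adipocyte markers summed to 1021 and 1677 and 1217, 1250.04 and 1123, and 1 of 13, Dio2, which deiodinates thyroid hormone, passed (adjusted p = 0.013 by limma, but 0.22 without untreated replicate 2 and 0.062 without treated replicate 3). Nerve markers summed to 76.2 and 58.3 and 60.3, 60.4 and 79.4 (0 of 9 called) and striated muscle markers to 25.6 and 38 and 56.8, 61 and 23.3 (0 of 12). No list had a marker without reads in all 5 libraries. In bulk tissue, fewer cells of a type and less RNA per cell cannot be told apart, and the part of these uneven cell types in the results was not tested.

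Sequence upstream of annotated starts is shown first for 7 genes of the response, chosen after their values were seen because the 250 bases before a start hold the letters of a motif named after one of the signals described below. Bases come from RefSeq promoters on GRCm38.p6, are written 5′ to 3′ on the gene's strand, and are trimmed where an annotated untranslated region begins. For Hspe1, whose matches overlap such a region, only 30 bases around the matches are printed. Capitals mark only the matches named for each gene, and letters of other motifs searched below stay in lower case. Hspe1, the mitochondrial cochaperonin (chr1:55088053-55088082, + strand, 30 bases), holds 2 overlapping heat shock elements; Rcan1, a feedback inhibitor of Cn (chr16:92400079-92400328, − strand, the internal start), holds a cyclic AMP response element and an AP-1 site. Errfi1, an inhibitor of the EGF receptor (chr4:150854820-150855069, + strand), holds a cyclic AMP response element, and Tnfaip6, a hyaluronan-binding protein (chr2:52037863-52038008, + strand, 146 bases), an AP-1 site. Mt2, a metallothionein (chr8:94172368-94172617, + strand), holds 3 metal response elements, 1 of them on the opposite strand, and an AP-1 site. Sgk1, a kinase gene known to respond to glucocorticoids (chr10:21993640-21993889, + strand, 1 of its 6 windows), holds a glucocorticoid response element, and Per3, a clock gene that fell (chr4:151044666-151044915, − strand), a pair of D boxes, the letters bound by Dbp and Nfil3.
Hspe1: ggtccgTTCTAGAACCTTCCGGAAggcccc
Rcan1: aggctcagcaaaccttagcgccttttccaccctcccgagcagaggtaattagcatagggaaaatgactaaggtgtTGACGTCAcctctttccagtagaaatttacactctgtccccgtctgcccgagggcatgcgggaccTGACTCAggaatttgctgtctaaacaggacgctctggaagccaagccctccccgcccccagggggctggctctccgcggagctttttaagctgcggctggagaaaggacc
Errfi1: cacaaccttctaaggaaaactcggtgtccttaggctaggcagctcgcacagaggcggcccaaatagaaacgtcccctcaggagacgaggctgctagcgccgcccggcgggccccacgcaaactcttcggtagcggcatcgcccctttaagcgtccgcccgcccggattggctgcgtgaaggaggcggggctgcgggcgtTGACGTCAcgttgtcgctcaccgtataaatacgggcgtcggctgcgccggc
Tnfaip6: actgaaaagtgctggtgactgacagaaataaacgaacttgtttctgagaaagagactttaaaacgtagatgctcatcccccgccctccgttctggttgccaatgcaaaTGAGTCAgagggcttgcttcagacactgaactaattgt
Mt2: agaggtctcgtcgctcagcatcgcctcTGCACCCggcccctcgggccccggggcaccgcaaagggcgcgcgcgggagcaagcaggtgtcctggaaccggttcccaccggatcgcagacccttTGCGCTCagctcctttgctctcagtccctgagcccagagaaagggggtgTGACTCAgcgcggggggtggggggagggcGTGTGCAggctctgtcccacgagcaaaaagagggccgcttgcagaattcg
Sgk1: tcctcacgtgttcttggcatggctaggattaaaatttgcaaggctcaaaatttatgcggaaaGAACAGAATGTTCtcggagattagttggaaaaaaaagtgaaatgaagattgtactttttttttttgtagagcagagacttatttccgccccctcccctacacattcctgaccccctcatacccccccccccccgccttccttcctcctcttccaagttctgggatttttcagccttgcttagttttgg
Per3: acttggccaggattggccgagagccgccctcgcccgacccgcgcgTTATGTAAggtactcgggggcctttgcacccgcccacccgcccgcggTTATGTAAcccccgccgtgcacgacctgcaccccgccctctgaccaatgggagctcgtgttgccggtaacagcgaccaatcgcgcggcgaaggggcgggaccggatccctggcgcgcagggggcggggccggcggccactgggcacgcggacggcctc

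These matches are descriptions, not sites or causes. Of the 11216 tested genes with a promoter entry, 531 had risen and 174 had fallen. Both strands of the 250 bases before each annotated start were searched, and a match before any start of a gene counted. Genes with several starts thus had more sequence searched, and no correction was made for this. The cyclic AMP response element (TGACGTCA) was in 2.80% of all, 5.27% of the risen and 4.02% of the fallen genes. The AP-1 site (TGANTCA) was in 5.88%, 7.72% and 3.45%, and the E box (CACGTG) in 9.32%, 13.2% and 6.32%. The heat shock element (GAA, TTC and GAA, each 2 bases apart) was rare, in 0.446%, 0.942% and 0%, and so were the glucocorticoid response element (its 13-base palindrome with 3 free central bases; 0.339%, 0.942% and 1.15%) and the D box (TTACGTAA or TTATGTAA; 0.820%, 0.377% and 0.575%). The metal response element (TGCACNC or TGCGCNC) was common, in 32.7%, 36.5% and 33.3%, and the CArG box of serum response factor was in 1.44%, 1.88% and 1.72%. Of 18 heat shock list genes with a promoter entry only 2, Hspd1 and Hspe1, held the heat shock letters in this window. Hspd1 and Hspe1 overlap on opposite strands and both strands were searched, so the same letters may have been counted for both.

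Most of the genes called in Cn-Ctl after 2 h of Ang-II had thus risen. In the wild-type mice described below, 53.18% of the called genes had risen, and 40.06% after quantile normalization. The 681 risen genes had a median log2 fold change of 1.28, 140 of them above 2 and 14 above 4, whereas 20 of the fallen genes were below -2 and 2 below -3. The median over all genes was 0.01 on the authors' scaling. Changes thus stand relative to the middle gene, whose own change scaled values cannot show. Together the risen genes took 6.89% and 7.07% of all signal in the untreated libraries and 17.75%, 18.01% and 17.71% in the treated ones, and the fallen genes went from 1.20% and 1.15% to 0.401%, 0.451% and 0.467%. In each of the 899 genes the treated libraries lay wholly on one side of the untreated ones, an order that 20.6% of all genes showed upwards and 18.5% downwards. With 2 untreated libraries the count depended on each of them: 377 genes were called without untreated replicate 3 (87.8% of them higher), 409 without untreated replicate 2 (89.49%) and 593 without treated replicate 1 (81.45%). Quantile normalization, which makes the value distributions alike, called 449 higher and 241 lower genes, 65.07% higher against 75.75%, while edgeR on the recovered reads called 602 and 241.

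**Figure D1:**
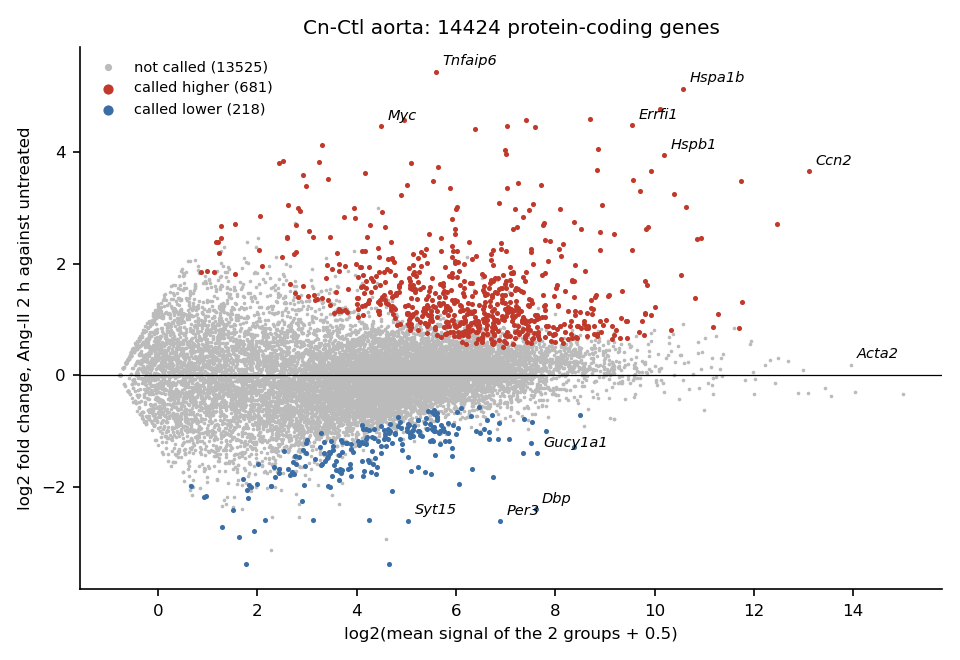
Each point is 1 of the 14424 protein-coding genes, with log2 of its mean signal over both groups plus 0.5 on the horizontal axis and its log2 fold change, 2 h of Ang-II against untreated, on the vertical axis. The 681 genes that rose are red, the 218 that fell are blue, and the former reach further from 0 than the latter.

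Transcription factors of the immediate early response were among the largest changes. Of 12 measured AP-1 factors 8 rose, with a list median of 2.33. Fosb, a Fos family partner of Jun proteins, had a signal of 9.54 and 16.5 in the untreated and 293, 449 and 236 in the treated libraries. Its lowest treated library was thus far above both untreated ones, and the log2 fold change was 4.59 ± 0.54 (limma, Benjamini-Hochberg adjusted p = 7.2e-06). Atf3, a stress-induced member of the same family, rose from 43.9 and 58.3 to 604, 959.6 and 1072 (4.06 ± 0.32, adjusted p = 2.6e-08). Fos itself went from 16.1 and 28 to 99.2, 428 and 312 (3.45 ± 0.48), with treated replicate 1 well below the other two. Maff, a small Maf protein, rose by 3.02 ± 0.32 and Fosl1 by 3.83 ± 0.86, the latter from nearly no reads (0.947 and 0.0913) to 31.2, 17.7 and 3.44. The call on Fosl1 rested on a few libraries, since its limma adjusted p of 0.007 became 0.16 without untreated replicate 3 and 0.05 without treated replicate 1. Jund, which most cells express constantly, had 116 and 110.3 and 439.6, 292 and 139 and did not pass.

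Among Egr, Nr4a and other immediate early genes 9 of 13 rose, with a median of 1.98. Nr4a3, an orphan nuclear receptor, went from 10.9 and 19.6 to 262, 288 and 175, and all 3 treated libraries were many times above the untreated ones (3.97 ± 0.30, limma adjusted p = 2.6e-08). Arc, best known from neurons, went from 0.947 and 3.56 to 58.7, 68.6 and 48 (4.59 ± 0.58). Csrnp1, a nuclear protein induced by axin, rose by 3.49 ± 0.35 and Ier5, a cofactor of the heat shock factor, by 2.98 ± 0.35. Ier3, an immediate early gene that acts on cell survival, had 41 and 42.6 and 136, 222 and 153 (1.98 ± 0.31). Srf, serum response factor, which regulates many of these genes, did not pass, at 66.3 and 62.3 and 54.3, 71.3 and 59.2.

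Of 12 Krüppel-like factors 3 rose, and the list median was 0.40. Klf6 had a signal of 239.8 and 281 untreated and 1169, 1282 and 1273 treated, a tight treated group far above both untreated libraries (2.25 ± 0.20, limma adjusted p = 1.6e-07). Klf4, which represses contractile genes in smooth muscle, rose by 2.17 ± 0.25. Klf2, a flow-responsive endothelial factor, rose by 1.29 ± 0.28, a call lost without untreated replicate 2 (adjusted p = 0.24). Klf9, Klf13 and Klf7 were among those that did not pass.

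Myc, a driver of growth, was close to undetected in the untreated libraries (1.67 and 1.19) and reached 48.6, 46.3 and 32.8 after Ang-II (4.47 ± 0.55, limma adjusted p = 1.1e-05). Of 10 genes on the list of Myc and polyamine enzymes 4 rose, with a median of 0.64, among them Sat1 and Azin1, which act on polyamine breakdown and on ornithine decarboxylase (1.50 ± 0.20 and 1.49 ± 0.26), and Odc1 itself at 108 and 85.1 and 175, 141 and 176. Growth arrest genes rose beside them, 4 of 12 with a median of 1.03. Cdkn1a, the inhibitor p21, had 29.5 and 29.7 untreated and 389.9, 256 and 133 treated, and Btg2, an antiproliferative gene, 92.9 and 85.1 and 285, 562 and 494. Their log2 fold changes were 2.98 ± 0.36 and 2.27 ± 0.26. Without untreated replicate 3, or without treated replicate 2, only 2 of the 4 growth arrest genes still passed. None of 25 cell cycle and DNA replication genes was called in either direction, and Ccnd2, a D cyclin, stood at 395 and 379.5 and 403, 375 and 344.

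**Figure D2:**
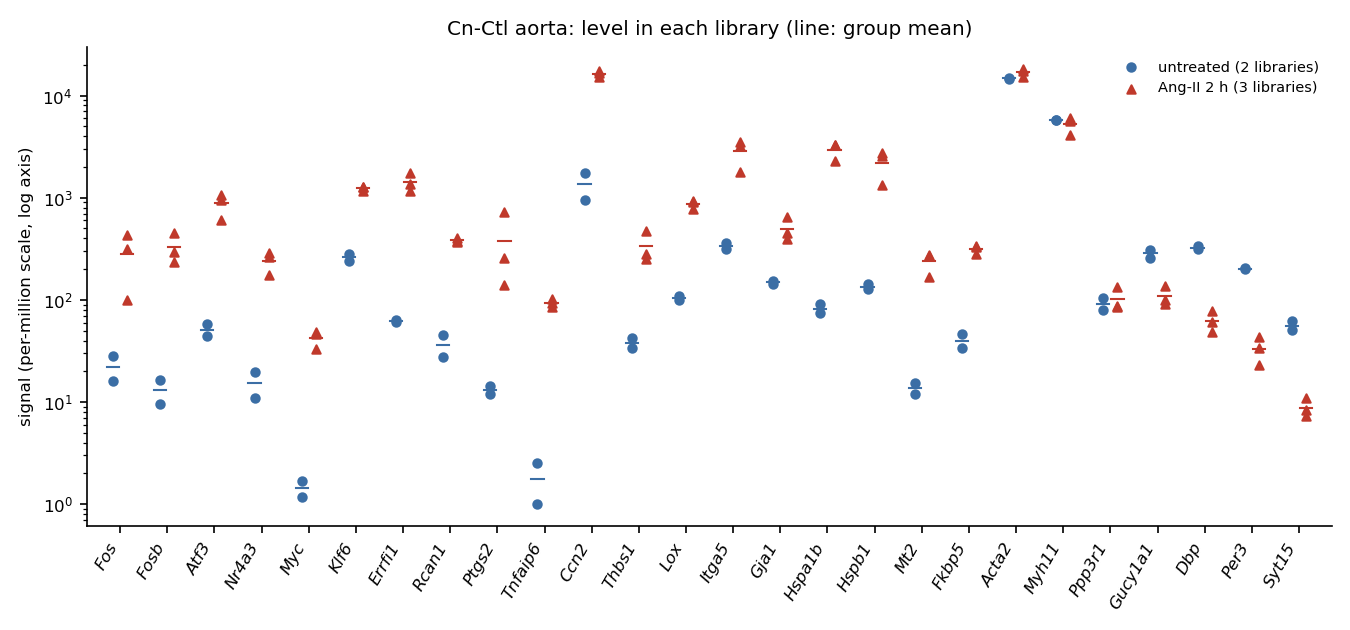
Signal (logarithmic axis) of 26 genes in each of the 2 untreated and 3 treated Cn-Ctl libraries, 1 point a library, with a line at each group's mean. Genes such as Fosb, Tnfaip6 and Hspa1b stand far apart between groups, Per3, Dbp and Syt15 are lower after Ang-II, and Acta2, Myh11 and Ppp3r1 overlap.

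Inhibitors of receptor signalling rose with these factors. Errfi1, which binds and silences the EGF receptor, went from 63.6 and 61.2 to 1374, 1742 and 1169.7, all treated libraries far above both untreated ones (4.49 ± 0.34, limma adjusted p = 2.6e-08). The EGF receptor ligands Hbegf and Ereg rose as well, from 33.3 and 45.7 to 345, 302 and 214 and from 5.02 and 7.03 to 42, 32.9 and 46.8. In all, 3 of 9 genes on this list passed, and the receptor Egfr itself had 39.5 and 43.3 and 60.3, 56 and 68.4. Of 15 MAP kinase phosphatases and Sprouty inhibitors 6 rose, with a median of 1.05. Spry2, which blocks receptor tyrosine kinase signalling, rose by 1.70 ± 0.23, and the phosphatases Dusp8, Dusp10 and Dusp16, which act on JNK and p38, by 1.55 ± 0.23, 1.92 ± 0.32 and 1.41 ± 0.26. Dusp6, a phosphatase for ERK, remained at 15.2 and 16.9 and 13.9, 13 and 20.3. None of the 9 RGS genes, which switch off G proteins, was called; Rgs5, which acts in smooth muscle and pericytes, had 1782 and 1823 and 1755, 1346 and 1466.

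In the STAT3 and SOCS list 6 of 15 genes rose, with a median of 0.61. Socs3, the main inhibitor of gp130 cytokine signalling, had 4.73 and 3.56 and 25.4, 72.3 and 22.9, with treated replicate 2 well above the other two (2.94 ± 0.44, limma adjusted p = 0.00013). The receptor genes Osmr and Il6ra rose by 1.34 ± 0.23 and 1.63 ± 0.33, while the shared subunit Il6st had 287 and 251 and 235, 257 and 306. Of 14 cytokines and chemokines 3 rose: Csf1, a macrophage growth factor, and Il6 and Csf3, which had 0 reads in both untreated libraries. Against 3 reads over the untreated group Il6 was at least 13.56-fold and Csf3 at least 14.84-fold higher. None of the 3 passed without either untreated library, and 3, 1 and 1 cytokine genes passed without treated replicates 1, 2 and 3. Of 15 NF-kB factors, targets and inhibitors 2 rose, Nfkbiz, an atypical nuclear inhibitor (2.06 ± 0.31, adjusted p = 0.00012), and Icam1, an adhesion molecule (9.69 and 11.4 and 15.7, 27.5 and 27.5); 1 passed without untreated replicate 3 or without treated replicate 2 or 3. Vcam1, another adhesion molecule, was high in treated replicate 3 only (55.1, 63.9 and 324, against 55.3 and 47.4 untreated), the library with the highest macrophage and fibroblast marker sums, and did not pass. Zfp36, which destabilizes cytokine mRNAs, rose by 1.56 ± 0.28, as the only one of 9 mRNA decay regulators. No interferon-stimulated gene of 16 was called, and their median was -0.47.

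Among 15 growth factors 1 rose and 1 fell. Bdnf, a neurotrophin that endothelium and smooth muscle also make, went from 5.46 and 16.9 to 113, 113 and 88.7, with the treated libraries close together and far above both untreated ones (3.37 ± 0.38, limma adjusted p = 4.4e-06). Angpt2, which destabilizes vessels as an antagonist of Tie2, went from 85.7 and 83.7 to 23.6, 32.2 and 50.8, lower in all 3 treated libraries (fell by 1.31 ± 0.30 on the log2 scale, adjusted p = 0.0074). Its adjusted p was 0.081 without untreated replicate 2, 0.078 without untreated replicate 3 and 0.053 without treated replicate 1.

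No gene of Cn itself was called, whereas its feedback inhibitor rose. Ppp3r1, the floxed gene, had 104 and 78.8 untreated and 84.8, 86.4 and 134 treated, which overlap, and the catalytic subunits Ppp3ca (98.2 and 88.6 and 79.7, 67.8 and 88.6) and Ppp3cb (119 and 89.5 and 75.5, 69.3 and 112) did not pass either. Reads of Ppp3r1 may include those of Wdr92, which overlaps it on the same strand. Rcan1, whose upstream sequence is printed above and whose short form is an NFAT target, had 27.6 and 45.4 untreated and 368, 404 and 380.2 treated. The 3 treated libraries lay within a narrow band far above the untreated ones (3.42 ± 0.36, limma adjusted p = 1.9e-06). Nfat5, an NFAT relative that responds to osmotic stress and not to Cn, had 196 and 186 and 395, 369 and 300.01 (0.88 ± 0.16, adjusted p = 0.0013, 0.063 after quantile normalization). These were the 2 of 13 genes on the list of Cn, NFAT and Rcan genes that rose. The list median was 0.08, and -0.08 after quantile normalization.

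The receptor that Ang-II acts on in rodents, Agtr1a, was barely expressed, at 2.69 and 2.28 and 5.88, 2.76 and 2.07, and was not called. At so low a signal a small change could be missed. Of 8 renin-angiotensin genes 1 rose, Lnpep, the peptidase that binds angiotensin IV (11.4 and 8.12 and 40, 35.4 and 33.1, 1.85 ± 0.37, limma adjusted p = 0.0025, 0.079 without untreated replicate 3). Ace, the converting enzyme, had 135 and 165 and 235, 303 and 266, higher in every treated library, and did not pass. In the endothelin, nitric oxide and natriuretic peptide list 1 of 13 genes rose and 1 fell. Gucy1a1, a subunit of the nitric oxide receptor guanylate cyclase, went from 310.01 and 259 to 91.6, 99.2 and 136, every treated library below both untreated ones (fell by 1.40 ± 0.32 on the log2 scale, adjusted p = 0.0089, but 0.13 and 0.056 without untreated replicate 2 or 3). Ece1, which activates endothelin, rose by 1.04 ± 0.20 (adjusted p = 0.0021, 0.078 without untreated replicate 2). P2ry2, a receptor for extracellular ATP and UTP, was the 1 of 19 vasoactive receptors that rose (8.37 and 9.22 and 29.2, 28.1 and 19.5, adjusted p = 0.0067 by limma), a call lost without either untreated library (0.088 and 0.06). The list medians were 0.09 and -0.05, and -0.13 and 0.04 after quantile normalization. Over all genes tested 4.72% rose, so 1 risen gene of 19 or of 13 is near the share of all genes.

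Ptgs2, the inducible cyclooxygenase, rose from 11.9 and 14.3 to 139, 255 and 725. It varied widely between treated libraries, highest in replicate 3, yet the lowest was still far above both untreated ones (4.45 ± 0.55, limma adjusted p = 1.3e-05). It was the only one of 15 prostanoid genes called. Ptgis, prostacyclin synthase, had 546 and 639.6 and 945, 934 and 669, and Ptgs1, the constitutive cyclooxygenase, 11.3 and 14.1 and 11.5, 16.2 and 18.8.

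Genes of the extracellular matrix and its turnover rose on each of the lists made for them. Tnfaip6, which crosslinks hyaluronan, had the largest log2 fold change of the named genes, from 2.55 and 1.00 to 103, 92.6 and 85.2 (5.45 ± 0.51, limma adjusted p = 3.4e-07). The hyaluronan synthase Has1, with 0 reads in both untreated libraries, reached 2.49, 16.9 and 9.88 and was at least 39.85-fold higher against 3 reads over the untreated group. Cd44, the hyaluronan receptor, went from 45.1 and 43.2 to 249.96, 196 and 188 (2.24 ± 0.30), whereas Vcan, a proteoglycan that binds hyaluronan, had 167 and 161 and 152, 173 and 209. In all, 4 of 12 hyaluronan matrix genes rose (median 1.161), Has3 being the other one. Of the proteases, Adamts1 rose from 186 and 330.1 to 1214, 1423 and 2057 (2.62 ± 0.28) and Adamts9 from 29.8 and 24.5 to 94, 95.9 and 90.9 (1.77 ± 0.25), while Adamts6 (34.3 and 28.9 and 14.1, 12.7 and 15.1) fell, a call that no fit without 1 library kept. Adamts2, a procollagen peptidase, was the 3rd of 11 to rise.

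Lox, which crosslinks collagen and elastin, went from 109 and 99.6 to 939, 771 and 911, with no overlap between groups (3.06 ± 0.32, limma adjusted p = 1.9e-06). Loxl2 rose by 1.29 ± 0.20, and 7 of 17 metalloproteinase, Timp and lysyl oxidase genes rose in all (median 0.84). Mmp3, a stromelysin, had 30.7 and 10.5 and 58.7, 91.2 and 146, and Timp1, an inhibitor of metalloproteinases, 10.7 and 12.5 and 30.6, 35.7 and 139.9. For both the highest value was in treated replicate 3, the library with the highest fibroblast and macrophage marker sums, whose part was not tested. Timp1 (adjusted p = 0.016) lost its call without treated replicate 3 (0.084) or either untreated library (0.15 and 0.1), and Mmp3 (0.0057) without untreated replicate 3 (0.24). Leaving out untreated replicate 2 or 3 left 4 and 3 of the 7 genes called.

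Several matricellular genes rose steeply. Ccn2, connective tissue growth factor, had a signal of 959 and 1749 untreated and 15346, 16475 and 17504 treated (3.66 ± 0.40, limma adjusted p = 2.4e-06), with the treated libraries alike and far above both untreated ones. Reads of an antisense neighbour, Gm15270, may be counted with it. Ccn1 went from 214 and 279.7 to 1523, 2593 and 3187 (3.25 ± 0.27) and Thbs1, thrombospondin 1, from 42.3 and 33.7 to 282, 253 and 471 (3.08 ± 0.41). Postn, periostin, rose by 1.32 ± 0.26 and Tnc, tenascin C, also passed, making 5 of 15 (median 0.84). After quantile normalization 3 of these passed, Postn not among them (adjusted p = 0.055). Fn1, fibronectin, had 2209.7 and 2185 and 3685, 3365 and 4919, with no overlap, but did not pass. Of 11 coagulation and plasminogen regulators 4 rose (median 0.92): Plaur, the urokinase receptor (3.00 ± 0.49), Plau, urokinase (2.04 ± 0.43, adjusted p = 0.0041, 0.066 without untreated replicate 2), and Anxa2 and S100a10, which together bind plasminogen at the cell surface (1.43 ± 0.17 and 1.34 ± 0.20).

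Collagens and elastin rose less and less firmly. Of 18 genes 6 passed, with a median of 0.65, among them Eln, elastin, at 1839 and 1331 and 3041, 2866 and 4293 (1.10 ± 0.25, limma adjusted p = 0.008), Col5a2 at 247 and 278 and 516, 557 and 733 (1.18 ± 0.22), Col15a1 (1.10 ± 0.22) and Col1a1 at 708 and 519 and 988, 1139 and 1865 (1.08 ± 0.29). In each the lowest treated library was above both untreated ones. Without untreated replicates 2 and 3 and treated replicates 1, 2 and 3 in turn, 3, 2, 4, 4 and 6 of the 18 passed. Quantile normalization left 1 and moved the median to 0.20, with adjusted p of 0.21 for Eln, 0.3 for Col1a1 and 0.056 for Col15a1. Without untreated replicate 3 the adjusted p of Eln was 0.22 and that of Col1a1 0.34, and Col1a1 also missed the threshold without untreated replicate 2 (0.064) or treated replicate 3 (0.13). Fibroblast markers also stood higher in the treated libraries (summed signal above), and their part was not tested. Col1a2 (1928 and 1691 and 2428, 2767 and 3805) and Col3a1 (1615 and 1501 and 1821, 2263 and 3624) did not pass.

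Few genes of the contractile apparatus were called, and many of the cytoskeleton. Of 20 contractile genes only Myocd, the smooth muscle coactivator of serum response factor, rose, from 15.7 and 29.8 to 100.2, 104 and 85.8 (2.13 ± 0.43, limma adjusted p = 0.003, 0.11 without untreated replicate 2). The list median was -0.01, and -0.49 after quantile normalization, where 1 rose and 4 fell. Of 36 actin cytoskeleton and focal adhesion genes 15 rose, with a median of 0.71. Flnc, an actin crosslinker, had 137 and 111 and 2643, 2129 and 701, and Itga5, the fibronectin receptor subunit, 313 and 357 and 3530.2, 3207 and 1796. For both, treated replicate 3 was the lowest treated library and still severalfold above the untreated ones (3.67 ± 0.45 and 3.03 ± 0.36). Tpm4, a tropomyosin of the cytoskeleton, rose by 1.40 ± 0.17, and Ankrd1 and Lats2, a target and a kinase of the Hippo pathway, by 2.11 ± 0.41 and 1.52 ± 0.26. Ankrd1 missed the threshold without untreated replicate 2 (adjusted p = 0.079). The count was 8, 8, 11, 12 and 15 without untreated replicates 2 and 3 and treated replicates 1, 2 and 3, and 8 after quantile normalization. Flna, a filamin, and Actb, cytoplasmic actin, had 7496 and 8169.7 and 9168, 9307 and 6827, and 3030.2 and 3111 and 5902, 4829 and 3651, and were not called.

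Abra, an actin-binding protein of muscle, went from 7.65 and 14.1 to 179, 281 and 281, with every treated library far above both untreated ones (4.47 ± 0.44, limma adjusted p = 7.7e-07). Of 19 small GTPases, their effectors and regulators 7 rose, with a median of 0.67, among them Gem, which inhibits calcium channels (27.9 and 33.3 and 109.97, 143 and 162, 2.15 ± 0.37), and Rhoc (145 and 121 and 319, 287 and 216). In the fits without untreated replicates 2 and 3 and treated replicates 1, 2 and 3, 4, 2, 5, 4 and 6 of them passed, and 3 with quantile normalization. Rhoa, a GTPase, and its effector kinase Rock1 had 531 and 461 and 670.3, 667 and 716, and 700.4 and 833 and 786, 769 and 742. Of 26 calcium channels, stores and pumps only Pln, phospholamban, fell (37.8 and 24.5 and 14.9, 10 and 5.44). No calcium gene was called without untreated replicate 2 or 3 or treated replicate 2 or 3. Gja1, connexin 43, was the 1 of 5 vascular connexins that rose, from 144 and 154 to 396, 449 and 652 (1.71 ± 0.24, adjusted p = 4.3e-05), and each treated library lay well above both untreated ones.

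In the TGF-beta and BMP list 6 of 32 genes rose, with a median of 0.17. Tgfb2, a ligand, had 89.6 and 114 and 472, 453 and 424, with both groups tight and far apart (2.15 ± 0.20, limma adjusted p = 2.2e-07). Its receptor Tgfbr1 went from 131 and 124 to 372, 409 and 403 (1.63 ± 0.25), Smad1, a transducer of BMP signals, from 36.2 and 30.6 to 85.8, 98.6 and 73 (1.34 ± 0.28) and Fstl3, an activin-binding inhibitor, from 102 and 107 to 333, 280.5 and 183 (1.30 ± 0.22). Skil, a Smad corepressor, passed too. Without untreated replicate 3 only 3 passed, and Smad1 had an adjusted p of 0.081. None of 14 Notch pathway genes was called, their median was -0.41, and quantile normalization called 4 of them lower.

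Chaperones had the largest share of risen genes of the 44 lists. Of 23 heat shock proteins and cochaperones 20 rose and none fell, with a median of 1.84, and between 17 and 19 passed in each fit without 1 library. Hspa1b, inducible Hsp70, had a signal of 74.2 and 90.4 untreated and 3268, 3295 and 2309.7 treated, the widest gap between groups on this list (5.15 ± 0.47, limma adjusted p = 2.2e-07). Its near-identical copy Hspa1a (4.78 ± 0.53) shares reads with it, so the split between them is uncertain, and Gm20481 (4.14 ± 0.54) overlaps Hspa1a on the opposite strand. Dnajb1, the Hsp40 partner of Hsp70, went from 25.4 and 39.3 to 595, 867 and 931 (4.61 ± 0.37), and Hspb1, a small heat shock protein that binds actin, from 127 and 142 to 2724, 2538 and 1339 (3.96 ± 0.35). Hsph1, a nucleotide exchange factor of Hsp70, rose by 3.51 ± 0.37, and Hspe1, shown above with its heat shock elements, by 1.63 ± 0.26. The exceptions were Hspb6, Fkbp4 and Hsf1, the heat shock factor, which had 37.9 and 46.6 and 49, 51.3 and 35.4.

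Known glucocorticoid targets rose as well, 6 of 16, with a median of 1.28. Fkbp5, which restrains the glucocorticoid receptor, had 46.5 and 33.5 untreated and 282, 333 and 327 treated (2.97 ± 0.31, limma adjusted p = 1.7e-06). Sgk1, whose promoter is printed above, went from 53.8 and 87.7 to 333, 395 and 394 (2.43 ± 0.28), Tsc22d3, GILZ, from 54.1 and 54.5 to 163, 213 and 199 (1.80 ± 0.33) and Cebpd, a bZIP factor, from 5.61 and 9.22 to 32.4, 30.3 and 25.5 (1.95 ± 0.28). In all of these the groups were well apart. The receptor Nr3c1 had 169 and 134 and 95, 100.5 and 129 and did not pass. Metallothioneins, which bind zinc and are induced by metals and glucocorticoids, followed: Mt2 went from 12 and 15.4 to 276, 270.1 and 169 (4.05 ± 0.36) and Mt1 from 36.3 and 37.7 to 279, 306 and 146 (2.63 ± 0.34), and the zinc importer Slc39a14 rose by 1.37 ± 0.21. These were 3 of 6 measured genes on that list, and in Mt2, Mt1 and Hspb1 alike treated replicate 3 was the lowest of the treated libraries. Gm45774 overlaps Mt2 on the opposite strand.

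Clock genes changed in both directions, 3 of 19 higher and 4 lower (median -0.27). Dbp, a PAR bZIP activator, fell from 314 and 336 to 48.2, 77.8 and 60.6 (by 2.40 ± 0.39 on the log2 scale, limma adjusted p = 0.00027), and Per3, whose upstream D boxes are shown above, from 205 and 198 to 22.8, 34 and 43.4 (by 2.62 ± 0.35, adjusted p = 3.2e-05). For both, every treated library was far below both untreated ones. Hlf, a relative of Dbp, had 127 and 81.5 and 14.7, 25.8 and 45.2 (fell by 1.96 ± 0.44, adjusted p = 0.0073, 0.15 without untreated replicate 2 and 0.053 without treated replicate 1). Nfil3, which competes with Dbp for the D box, rose from 3.13 and 14.3 to 169.8, 159.9 and 141 (4.42 ± 0.65), and Arntl, the core activator Bmal1, from 0.364 and 0.821 to 19.8, 14.3 and 6.66 (3.59 ± 0.80, adjusted p = 0.0063, 0.1 without untreated replicate 2). Per2, Nr1d1 and Nr1d2 did not pass, at 224 and 241 and 171, 219 and 162 for Per2. Dbp overlaps Sphk2 on the opposite strand and Per3 overlaps Camta1 on its own. The hour of killing was not given, so Ang-II and time of day cannot be told apart for this list.

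**Figure D3:**
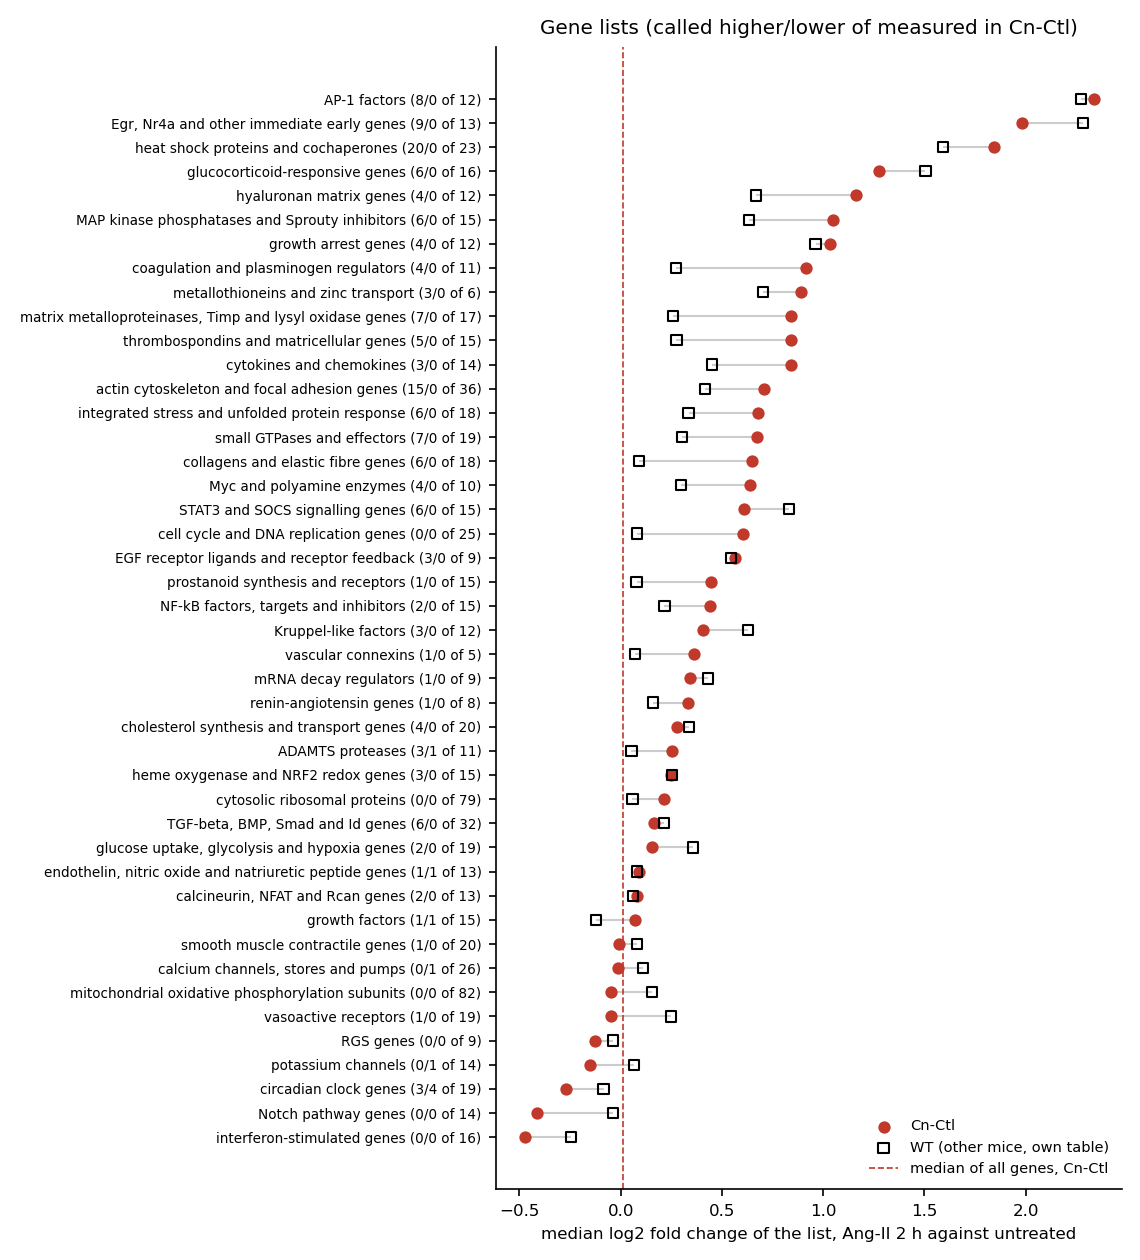
Median log2 fold change after 2 h of Ang-II for the 44 gene lists, filled circles for Cn-Ctl and open squares for WT mice, with a dashed line at the median of all genes tested in Cn-Ctl. AP-1 factors, immediate early genes and heat shock genes lie furthest to the right, and oxidative phosphorylation subunits, contractile genes and calcium handling genes lie near the line.

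Stress and metabolic lists moved in part. Of 18 integrated stress and unfolded protein response genes 6 rose, with a median of 0.68. Ppp1r15a, which reverses the block of translation, had 28.9 and 29.3 and 103, 173 and 112 (2.09 ± 0.27, limma adjusted p = 1.6e-05), and Atf4, its upstream factor, 131 and 174 and 482, 476 and 348 (1.51 ± 0.24). The count was 2, 2, 3, 5 and 4 without untreated replicates 2 and 3 and treated replicates 1, 2 and 3, and 2 after quantile normalization. Of 15 heme oxygenase and NRF2 redox genes 3 rose, among them Hmox1, heme oxygenase 1 (5.17 and 6.48 and 34.2, 27.5 and 25.6, 2.22 ± 0.56, adjusted p = 0.017), which missed the threshold without untreated replicate 2 (0.16), untreated replicate 3 (0.1) or treated replicate 1 (0.066); 1 and 0 of the 3 passed without either untreated library. Of 20 cholesterol genes 4 rose, among them Sqle, squalene epoxidase, at 23.8 and 16 and 63.9, 50.7 and 64.1 (1.58 ± 0.33, adjusted p = 0.0042, 0.13 without untreated replicate 3). This count was 2, 2, 2, 4 and 2 without each library in the same order, and 2 after quantile normalization. Of 19 glycolysis and hypoxia genes 2 rose, Slc2a1, the glucose transporter, at 27 and 18.5 and 65.5, 72.4 and 42.6, and Hk2, hexokinase 2; 1 and 0 passed without untreated replicate 2 or 3, and 1 after quantile normalization. None of 82 oxidative phosphorylation subunits and none of 79 cytosolic ribosomal proteins was called; their medians were -0.05 and 0.21, and -0.26 and -0.14 after quantile normalization.

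The 218 genes that fell had a median signal of 31.8 in the untreated and 12.96 in the treated group, and the list with most of them was that of the clock genes, with 4. Syt15, a synaptotagmin, had 61.5 and 50.5 and 7.28, 8.27 and 10.9 (fell by 2.61 ± 0.30, adjusted p = 4.4e-06). Smim5, a small membrane protein that overlaps Recql5 on the opposite strand, had 26.1 and 37.3 and 7.88, 3.39 and 3.90 (fell by 2.60 ± 0.43). Per3 and Dbp belong to the same group of 15 largest falls. Kcns3, a silent potassium channel subunit, had 45.4 and 35.9 and 4.69, 9.69 and 16.8, Aplnr, the apelin receptor, 8.81 and 5.20 and 0.0997, 0.867 and 1.61, and Tnr, tenascin R, 5.90 and 6.30 and 0.499, 0.0788 and 0.995; all 3 passed. Mup2 had 0 reads in all treated libraries and 6.77 and 4.65 untreated, at least 33.58-fold lower against 3 reads over the treated group, but belongs to the family of near-identical urinary protein genes noted under the liver markers.

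WT C57BL/6J mice given the same dose for the same 2 h, in separate libraries of 19.0 to 24.5 M reads, share no library with Cn-Ctl. The study's methods describe tamoxifen for the Cn-Ctl mice and give none for these WT mice. By those methods, treated WT mice were selected by the same systolic pressure threshold as treated Cn-Ctl mice. Tamoxifen, the floxed gene and the set of libraries thus differ together between the experiments. The WT table had been normalized separately, so responses are set side by side and no level is compared across tables. Of the 13432 genes tested in both, 1559 rose in WT (11.6%) and 1373 fell (10.2%), and after quantile normalization 1078 of the 13738 genes tested in WT rose and 1613 fell. All 681 genes that rose in Cn-Ctl were tested in WT, where 571 (83.85%) rose as well, 678 had the same direction and none fell. Of the 216 tested genes that fell in Cn-Ctl, 158 (73.15%) fell in WT, 213 had the same direction and none rose. Over all shared genes the log2 fold changes had a Pearson r of 0.69 and a Spearman rank correlation of 0.63, as a description, since genes are not independent. The WT responses of genes selected in Cn-Ctl were mostly smaller, with medians of 0.87 and -0.66, and 629 of the 681 and 212 of the 216 were larger in Cn-Ctl, the experiment that chose them. Hspa1b (4.21), Errfi1 (4.23), Fosb (4.35), Rcan1 (2.96), Mt2 (3.05) and Ccn2 (2.87) all rose in WT on the log2 scale, and Per3 (-1.67), Dbp (-1.67) and Gucy1a1 (-0.98) fell. Of the 18 collagen and elastic fibre genes 1 rose in WT, with a median of 0.09, and Eln (0.18), Col1a1 (0.01), Timp1 (0.44), Mmp3 (0.48) and Pi16 (0.06) had limma adjusted p between 0.23 and 0.97. The fibroblast marker list had a median of 0.06 in WT against 0.82 in Cn-Ctl. The difference between the experiments was not tested.

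**Figure D4:**
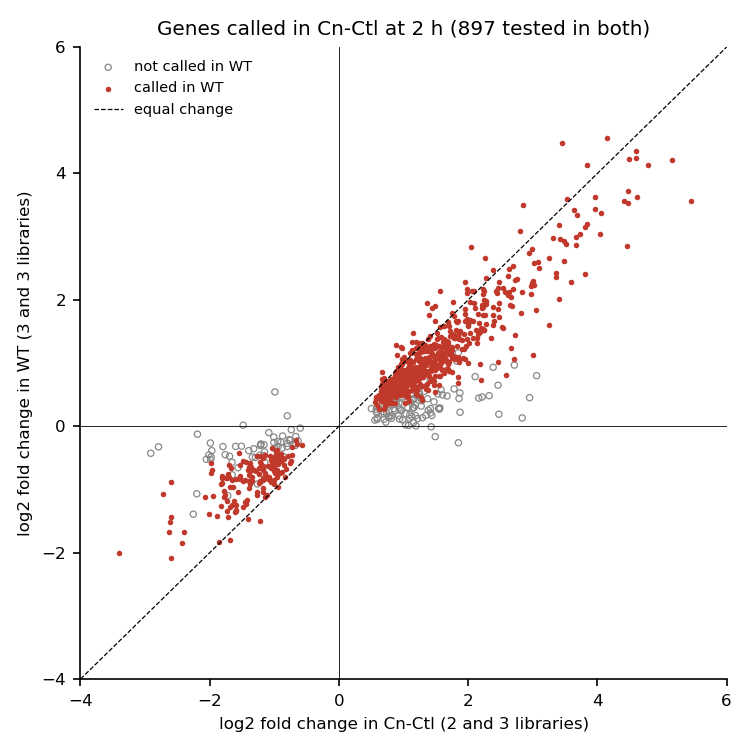
Log2 fold change after 2 h of Ang-II in Cn-Ctl (horizontal) and in WT (vertical) for the 897 genes that changed in Cn-Ctl and were tested in both, with a line of equal change. Nearly all points lie in the quadrants of equal sign, and most lie nearer to 0 in WT.

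The 6 h libraries of the same genotype (3 pools, Ang-II for 6 h) show which levels had returned. The comparison of 6 h with 2 h shares the 2 h libraries with the one above. Between 2 h and 6 h, 197 genes fell (1.37% of 14424) and 44 rose (0.305%). Hspa1b was at 151, 158 and 289 at 6 h in the 3 libraries, far below each 2 h library (fell by 3.94 ± 0.42 on the log2 scale, limma adjusted p = 2e-05), and Dnajb1 fell by 3.14 ± 0.33. Hspb1 was at 2206, 3009.8 and 3211 (change 0.40 ± 0.31, adjusted p = 0.59), in the range of the 2 h libraries or above it. Rcan1, at 85, 128 and 179, was between its untreated and 2 h levels (fell by 1.62 ± 0.33, adjusted p = 0.01), and Gja1, at 206, 165 and 149, had come close to the untreated level (fell by 1.50 ± 0.21, adjusted p = 0.00042). Tgfb2 fell by 1.07 ± 0.18 and Atf3 by 2.36 ± 0.28. By contrast, Mt2 was at 217, 228 and 395, Itga5 at 1635, 2202 and 5073 and Cd44 at 152, 192 and 326, with adjusted p of 0.82, 0.96 and 0.99 against 2 h, so no fall was detected in them. Of the genes that had fallen, Per3 rose again by 1.26 ± 0.32 (adjusted p = 0.043), while Dbp stood at 68.6, 48.5 and 62.8, near its 2 h level.

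**Figure D5:**
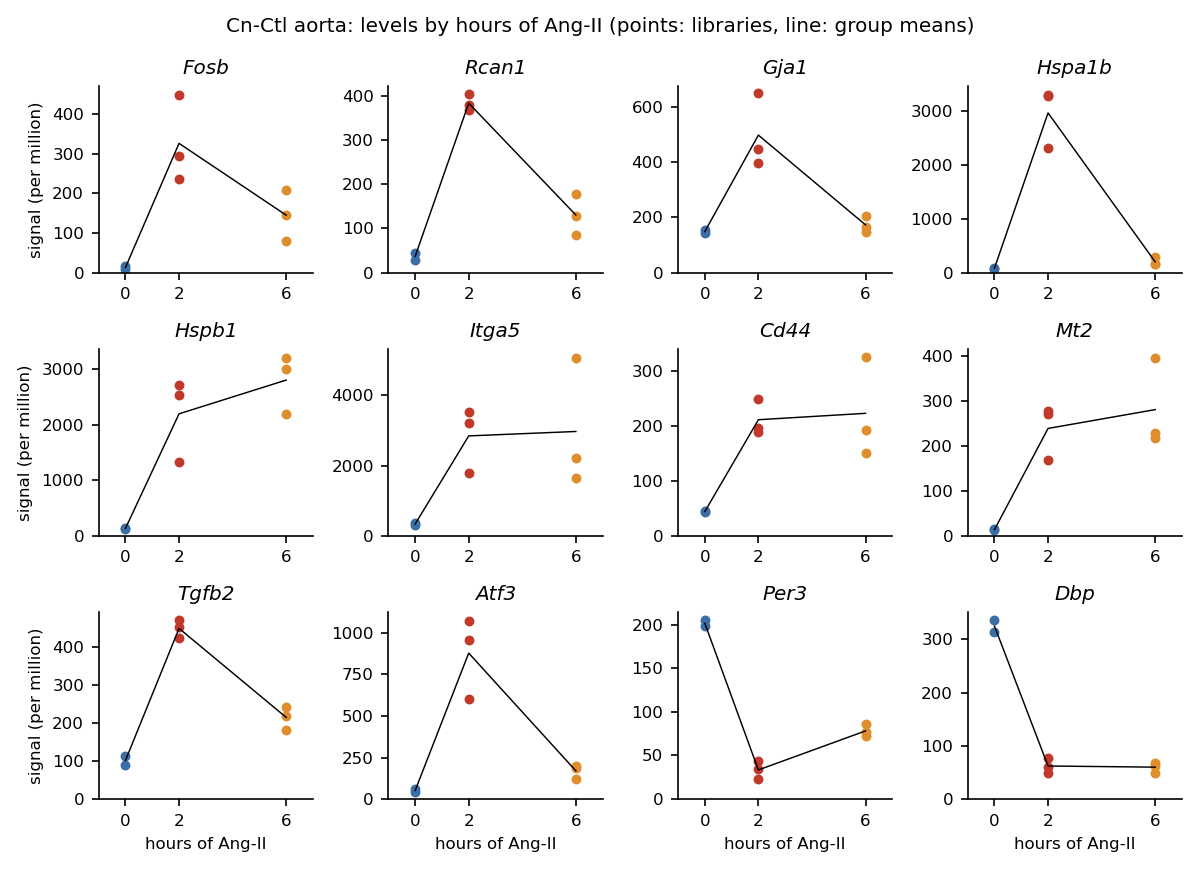
Signal of 12 genes in single Cn-Ctl libraries without Ang-II and after 2 and 6 h, with a line through the group means. Hspa1b, Atf3, Rcan1, Gja1 and Tgfb2 peak at 2 h, whereas Hspb1, Mt2, Itga5 and Cd44 are as high at 6 h, and Per3 dips at 2 h.

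For mice labelled SM-Cn-/-, which carry the Myh11-CreERT2 transgene that is active in smooth muscle, the 2 h response was compared through the difference of the log2 fold changes in the same fit. The signal of the targeted gene does not separate these groups, and reads outside a deleted stretch would not show a deletion. Ppp3r1 had 83.5, 69.5 and 48.8 in the 3 untreated and 118, 93.5 and 70.1 in the 3 treated libraries labelled SM-Cn-/-. In Cn-Ctl it had 104 and 78.8 and 84.8, 86.4 and 134. By the study's methods, CnB1 recombination was checked by PCR on aortic tissue, and mice in which deletion was not seen were left out. The study also reported less CnB and CnA protein in aortic extracts of SM-Cn-/- mice. The difference passed for 74 of 14424 genes (0.513%), 71 with the higher and 3 with the lower value in Cn-Ctl. Rcan1 had a log2 fold change of 3.42 in Cn-Ctl and 0.32 in SM-Cn-/-, a difference of 3.10 ± 0.49 (limma adjusted p = 0.0029). For Fosb the values were 4.59 and -0.11 (difference 4.70 ± 0.73), for Myc 4.47 and 0.20 (4.27 ± 0.73), for Hspa1b 5.15 and 0.98 (4.16 ± 0.63) and for Gja1 1.71 and 0.10 (1.61 ± 0.32). Other responses did not pass this test, such as Mt2 (4.05 and 2.43, difference 1.62 ± 0.48, adjusted p = 0.23), Ptgs2 (2.62 ± 0.74, adjusted p = 0.17) and Nfil3 (2.24 ± 0.87, adjusted p = 0.45), whose intervals are wide. Treated Cn-Ctl mice were selected for raised pressure and the mice labelled SM-Cn-/- were not, so genotype and selection cannot be told apart here.

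Outside the protein-coding genes, 59 of 2978 listed genes changed (1.98%), 38 upwards and 21 downwards, and 30 of them overlap another listed gene. Mir22hg, the host transcript of miR-22, had 99.99 and 90.4 untreated and 301, 283 and 220.4 treated (1.48 ± 0.19, limma adjusted p = 1.3e-05), and overlaps Tlcd2 on the same strand. Rian and Mirg, transcripts of the imprinted Dlk1-Dio3 region, went from 67.9 and 82.6 to 427, 384 and 243 (2.18 ± 0.23) and from 3.71 and 9.76 to 128, 82.3 and 22 (3.24 ± 0.57). In both treated replicate 3 was the lowest of the treated libraries and above both untreated ones.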

How the data were processed

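Aortic RNA-seq libraries (3 pooled aortas each) were grouped by genotype, treatment and hours of Ang-II as given per the labels. Per the methods and the submitters' processing notes, the authors made oligo-dT libraries, aligned reads with Bowtie 0.12.7 and assigned them to transcripts with RSEM 1.16 on GRCm38. Whether counting used strand is not given in the sources used here. The deposited signal is the read number plus 0.5 over a scaled library size, as found from the values: 100% convert to whole reads within 0.01, and edgeR run on these reads called 843 genes. Scaling by the authors is thus part of every value.

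Genes were matched to GENCODE M21. Log2(signal + 0.5) was fitted with limma 3.58.1 (R 4.3.3), 1 mean per group over 22 libraries, with variances moderated along the signal level, and p was adjusted after Benjamini and Hochberg over the protein-coding genes. The filter of signal 1 in 2 libraries removed none. The WT table was fitted on its own. Scripts were tested on simulated data. edgeR 4.0.16, DESeq2 1.42.0, other scalings, pseudocounts, filters, a replicate block and leaving out each library were the alternatives. Pairs of replicates had a chi-square of 7.73 to 24.9 per degree of freedom, more than read sampling gives. Named genes were Cn and renin-angiotensin genes of interest, the 15 largest changes in each direction with a mean signal of at least 5 and no overlap, up to 5 called and 3 uncalled genes per list, and Hspe1 and the non-coding genes, which were chosen after their values were seen. The members and lists were chosen with earlier results of these data known. Results on a few genes are not reported here.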

Additional observations from a re-analysis of the deposited data

Results flagged for a closer look

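Among 100 genes named with a fold change, the difference between the 2 h log2 fold changes of Cn-Ctl and of mice labelled SM-Cn-/- passed limma's test for 34. Over all 14424 genes tested it passed for 74 (0.513%). The 100 genes had been called in the same Cn-Ctl libraries that enter the difference, which favours both a high share and its direction. All but 1 of the 34 had the higher value in Cn-Ctl. Of the transcription factors and immediate early genes, the difference was 4.70 for Fosb, 4.27 for Myc, 3.94 for Arc, 3.54 for Fos, 3.20 for Atf3, 2.82 for Nr4a3, 2.63 for Ier5, 1.94 for Klf4 and 1.31 for Klf6. Of the heat shock genes it was 4.16 for Hspa1b, 3.73 for Dnajb1, 3.71 for Hspa1a, 2.49 for Hspb1, 2.47 for Hsph1 and 1.84 for Hspe1. Signalling genes gave 3.36 for Socs3, 3.10 for Rcan1, 2.21 for Dusp10, 2.00 for Errfi1, 1.73 for Tgfb2, 1.61 for Gja1 and 1.15 for Sat1. Matrix genes gave 3.86 for Tnfaip6, 2.86 for Plaur, 2.78 for Thbs1, 2.76 for Plau, 2.24 for Ccn1, 2.16 for Cd44, 1.27 for S100a10 and 1.12 for Anxa2, and cytoskeletal genes 3.25 for Flnc, 2.66 for Abra and 1.02 for Tpm4. Syt15 had the opposite sign, -1.91, since it fell further in Cn-Ctl. Genotype and the selection of treated Cn-Ctl mice by pressure cannot be told apart in these values.

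Genes that are not protein-coding stood outside the comparisons above, and 12 of them that rose at 2 h in Cn-Ctl had a mean signal of at least 100 in a group. Their log2 fold changes were 4.09 for Gm42503, 4.03 for Gm47571, 3.48 for Gm20186, 3.46 for Gm45551, 3.39 for Gm12840, 3.05 for Gm26809, 2.96 for Gm26825, 2.77 for AC160336.1, 2.58 for Gm15542, 2.18 for Rian, 1.48 for Mir22hg and 1.11 for AI506816. Gm20186 and Gm26809 overlap each other on opposite strands, and AC160336.1 and Gm26825 overlap Gm16439 and Gm15459 on the opposite strand. Gm15542 lies within Psmd13 and Mir22hg overlaps Tlcd2, both on the same strand, and Gm45551 is a pseudogene. Reads of neighbours or of similar genes may therefore be counted in these genes, including AC160336.1 with its treated mean signal of 19866.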

How the results depend on the processing

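With 2 untreated libraries, leaving out 1 library at a time gave between 377 and 782 called genes, 331 to 588 higher and 43 to 194 lower, so the count of 899 and above all the 218 lower genes rest on both untreated libraries. DESeq2 on the recovered reads called 391 lower genes, and quantile normalization 449 higher ones. The other planned fits stayed within 1.5 times of the counts given. The difference between Cn-Ctl and SM-Cn-/- passed for 35 genes, 33 of them higher, after quantile normalization, and for 176 (162 higher and 14 lower) with DESeq2, against 74. Between 2 and 6 h quantile normalization called 105 genes, 24 higher and 81 lower, against 241. Of 100 called genes named with a fold change, 75 kept their call in every fit run, 93 in every fit that kept all libraries, and none turned direction. With the replicate block 849 genes were called. Whether shared replicate numbers pair these libraries could not be settled. The correlation of deviations was -0.116 and -0.207 for replicates 2 and 3. With 2 untreated libraries the deviations from their mean mirror each other, so these values cannot decide it. The libraries held 5.27 to 7.45 M reads, and the median standard error was 0.36, against 0.15 in the WT experiment, which had deeper libraries and 3 untreated ones. The part of depth, library number and replicate spread in this was not tested.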
